A study of Mus musculus with 18 samples.

Results

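Collagen chains are the polypeptides that wind around each other in triple helices and build the fibres, sheets and filaments of the extracellular matrix. They were taken here as every gene of the deposited coexpression table whose symbol starts with Col, a number, the letter a and a number. The rule matched 41 of the 23890 genes in that table, and 40 of them are collagen chains. The remaining match, Col4a3bp, is an older symbol of Cert1, which encodes a ceramide transfer protein and no collagen. Its values on the 17 arrays of the comparisons lay between 9.55 and 10.06, it passed the threshold in none of the 6 comparisons, and it is left out of every count of chains. All 40 chains were measured by 1 probe set each and all were tested. The chains Col6a4, Col6a5, Col6a6 and Col26a1 were not matched by the rule and are not analysed here.

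The samples are RNA from spinal cords of mouse embryos on a Swiss-Webster background, all with the Aldh1l1-GFP transgene, a green fluorescent reporter of the astrocyte gene Aldh1l1. Cords were dissociated with papain and sorted by flow cytometry. The cells positive for GFP (GFP cells) were compared with a sort of all live cells of the cord. There were 3 arrays of GFP cells from E13.5, 2 from E14.5 and 3 from a late age that joins E17.5 (replicates 1 and 2) with E18.5 (replicate 3). All live cells were measured on 3 arrays per age, and their late replicates were split between E17.5 and E18.5 in the same way. By title the comparison samples are all live cells, whereas the shared treatment text speaks of GFP-negative cells; the titles were followed. A sort of all live cells still holds the GFP cells, so each difference understates the contrast with cells that lack GFP. The titles number biological replicates but name neither litter nor animal, and p-values therefore cover the spread between these samples, which may be technical.

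Fibrillar collagens such as types I, III and V form the tension-bearing fibres of connective tissue, and in the nervous system they are known mainly from the meninges, vessels and nerve sheaths. Type IV collagens form the network of basement membranes, including those under the meninges and around vessels, on which the endfeet of radial glia and astrocytes rest. FACIT collagens (fibril-associated collagens with interrupted triple helices) sit on the surface of fibrils, and type VI collagens form beaded filaments between fibrils and cells. Collagen chains need hydroxylases, isomerases and chaperones in the endoplasmic reticulum, large carriers for export, and lysyl oxidases for crosslinking outside the cell.

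The values are the deposited log2 expression values. Array medians lay between 7.73 and 7.82, and arrays of the same group correlated at 0.985 to 0.994 over all genes. Differences were tested with limma on all 17 arrays, and a gene was called higher or lower when its p-value, adjusted by Benjamini-Hochberg over 23820 genes, was under 0.05; values after ± are limma's standard errors. Aldh1l1 itself was higher in GFP cells by 2.19 ± 0.12 on the log2 scale at E13.5 (adjusted p = 3.51e-09), by 1.80 ± 0.14 at E14.5 (adjusted p = 9.02e-08) and, late, by 0.96 ± 0.12 (adjusted p = 5.24e-05). Of 9 markers of astrocytes and radial glia, 6, 6 and 8 were higher in GFP cells at these ages and 0 were lower. All 8 neuron markers were lower in GFP cells at each age. In such bulk samples, fewer cells of a type and less RNA per cell cannot be told apart. Where arrays of 2 groups are said not to overlap, this is a description, and the share of all genes without overlap was not computed. All 40 chains had a mean above the 25th percentile of all genes, from the 32.4th percentile for Col19a1 to the 99.0th for Col5a2.

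Most collagen chains were not called different between GFP cells and all live cells. A pair of FACIT chains, Col14a1 and Col12a1, stood above all live cells in the GFP cells of all 3 ages. The 7 chains called lower at E13.5 were 4 of the 11 fibrillar chains (Col1a1, Col1a2, Col3a1 and Col5a2), Col6a1, Col6a3 and Col4a1, and the 2 called lower at the late age were Col4a2 and the FACIT chain Col9a1. At E13.5, 2 of the 40 chains were called higher and 7 lower, against 11.1% of all genes higher and 8.02% lower. At E14.5, 2 chains were higher, against 10.3% of all genes, and 0 were lower by limma's adjusted p, against 8.24%. At an unadjusted p under 0.05, 5 chains were higher and 5 lower, and the share of all genes at that cut is not given here. At the late age, 2 chains were higher and 2 lower, against 4.61% and 4.69% of all genes. The median difference of the 40 chains was -0.09 at E13.5, -0.04 at E14.5 and 0.02 in late samples, and that of all genes was -0.04, -0.03 and 0.04. Over all 6 comparisons, 11 chains passed the threshold at least once and 29 in none. The share of all genes called at least once was not computed, and single comparisons called 4.6% to 20.2% of all genes.

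**Figure D1:**
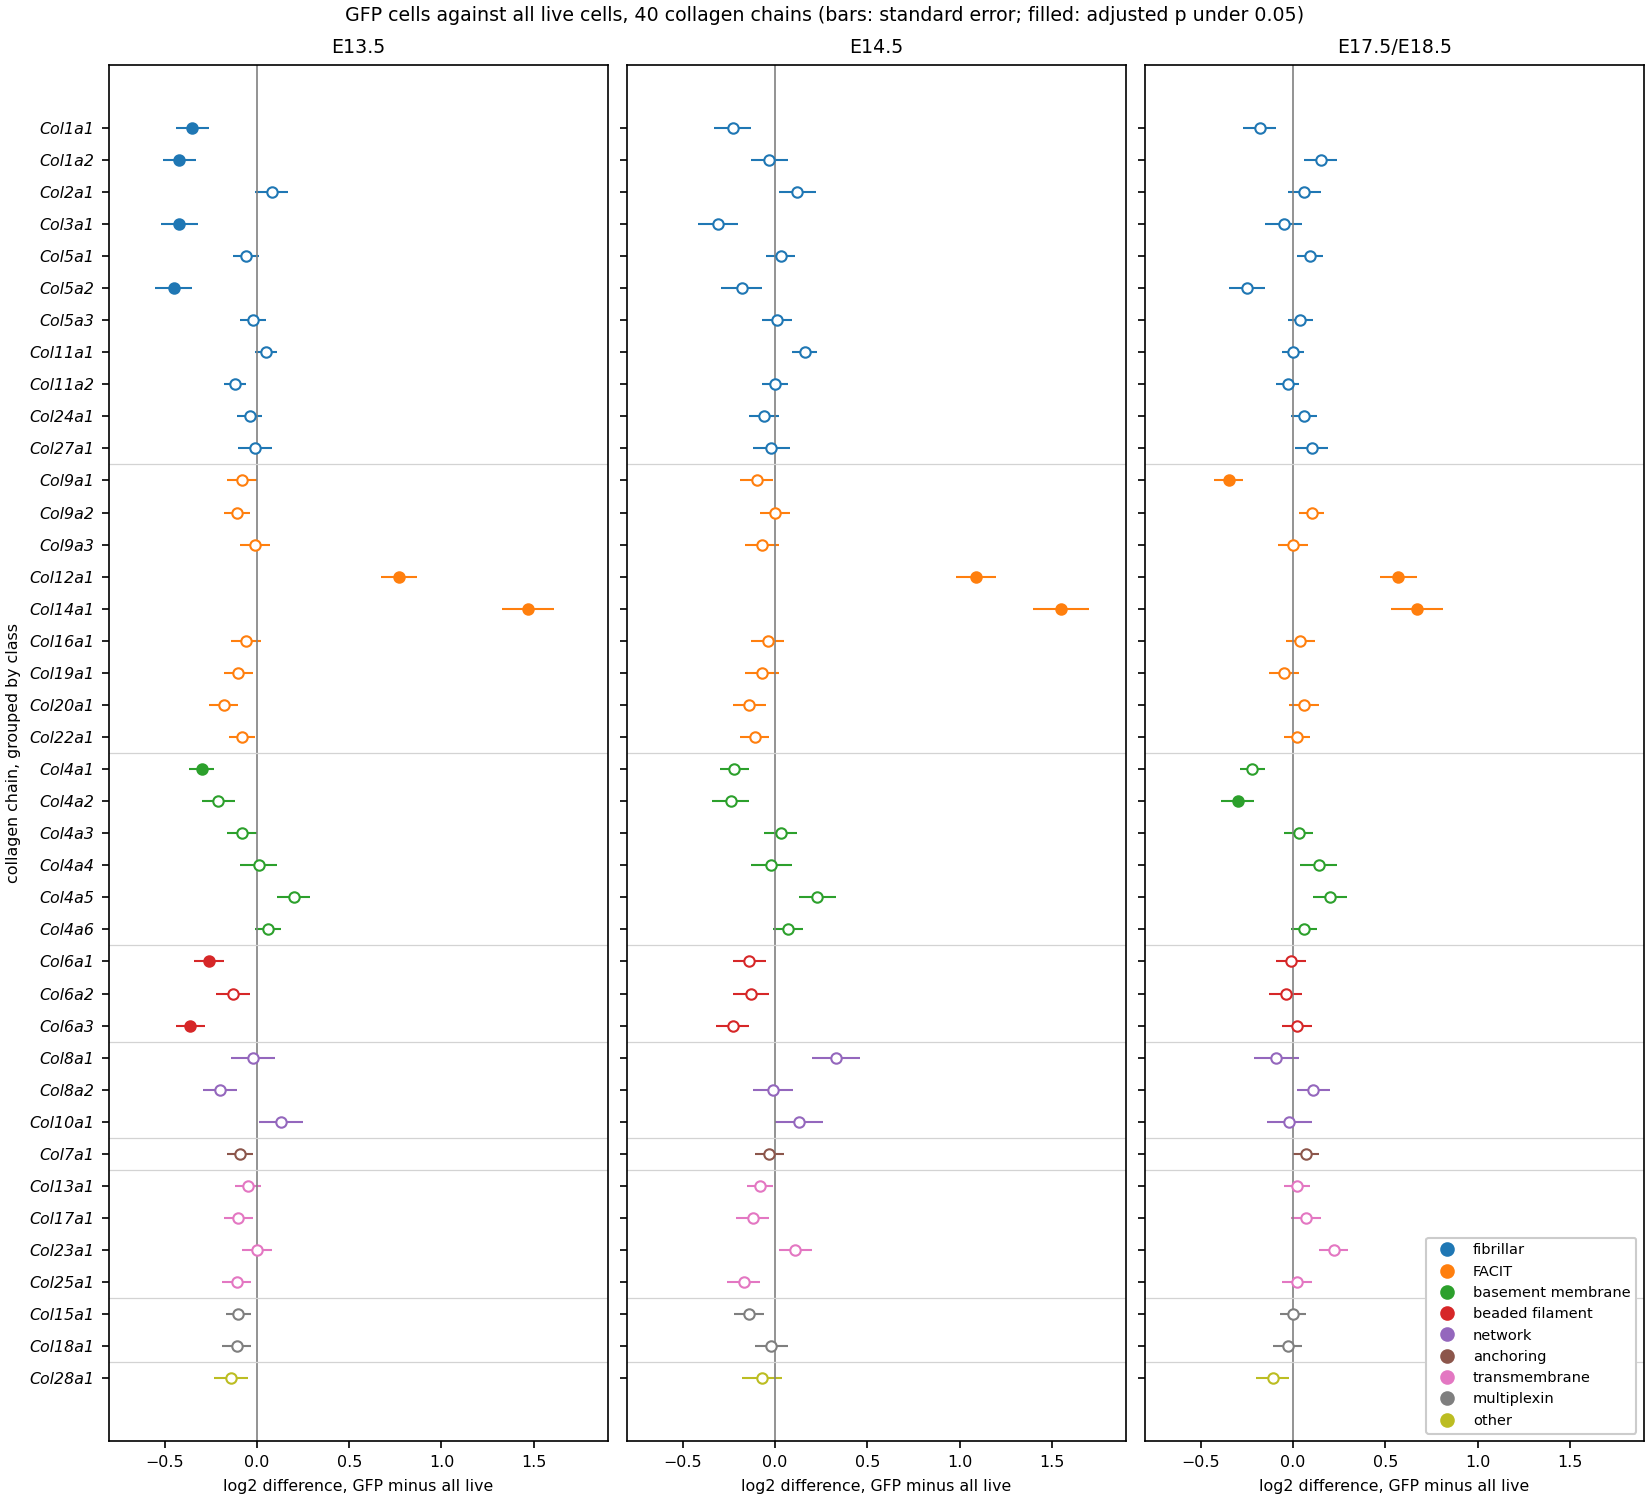
Difference between GFP cells and all live cells (log2, GFP minus all live) for the 40 collagen chains at E13.5, E14.5 and the late age, grouped and coloured by class. Bars are limma's standard errors and filled points have an adjusted p under 0.05; Col14a1 and Col12a1 stand to the right at each age, and the 7 filled points left of 0 at E13.5 are fibrillar, type VI and type IV chains.

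Col14a1, on chromosome 15, encodes the chain of collagen XIV, a homotrimer that binds the surface of collagen I fibrils and decorin. Its log2 values in GFP cells were 10.71, 10.51 and 10.41 at E13.5, 10.35 and 10.60 at E14.5, and 10.67, 10.54 and 10.52 in late samples. In all live cells they were 9.16, 8.95 and 9.11 at E13.5, 8.59, 8.98 and 9.19 at E14.5, and 9.67, 10.07 and 9.96 in late samples. GFP cells stayed in the same range at all ages, and every GFP array lay above every array of all live cells. The difference was 1.47 ± 0.14 at E13.5, a 2.77-fold higher level (adjusted p = 8.01e-07). It was 1.55 ± 0.15 at E14.5 (2.93-fold, adjusted p = 1.39e-06) and 0.67 ± 0.14 at the late age (1.60-fold, adjusted p = 0.00409). The difference narrowed through a rise in all live cells, which is described with the changes by age.

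Col12a1, on chromosome 9, encodes the chain of collagen XII, a homotrimer that also binds fibril surfaces. Its values in GFP cells were 8.89, 8.72 and 8.60 at E13.5, 8.97 and 8.96 at E14.5, and 8.55, 8.53 and 8.28 in late samples. In all live cells they were 7.86, 7.93 and 8.12 at E13.5, 7.77, 7.99 and 7.87 at E14.5, and 7.90, 7.98 and 7.76 in late samples. The groups did not overlap at any age. The difference was 0.77 ± 0.10 at E13.5 (1.70-fold, adjusted p = 3.45e-05) and 1.09 ± 0.11 at E14.5 (2.13-fold, adjusted p = 2.32e-06). In late samples it was 0.57 ± 0.10 (1.49-fold, adjusted p = 0.00131). Both FACIT chains kept their call at each age when any single array was left out. The other 7 FACIT chains were not called higher at any age.

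Both of these chains are also made by connective tissue cells, so the levels of other cells' markers are given beside them. Of 18 markers of meningeal and connective tissue fibroblasts, 10 were lower in GFP cells at E13.5 and 1 higher, 9 were lower at E14.5 and 1 higher, and 4 were lower in late samples and 0 higher. The mean log2 level of the 18 markers per array was 7.33 to 7.44 in GFP cells and 7.98 to 8.00 in all live cells at E13.5. The marker that was higher was Dcn, which encodes decorin, with 0.74 ± 0.15 at E13.5 (adjusted p = 0.00157) and 0.90 ± 0.17 at E14.5 (adjusted p = 0.00071). Lum, which encodes the related proteoglycan lumican, was lower by a log2 difference of -1.77 ± 0.18 at E13.5 (adjusted p = 2.03e-06). Dcn and Lum are also in the list of matrix partners used further on. In the GFP cells of E13.5 and E14.5 the mean of the fibroblast list was lower, and Col14a1, Col12a1 and Dcn were higher. The part of fibroblasts in the levels of Col14a1 and Col12a1 was not tested.

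**Figure D2:**
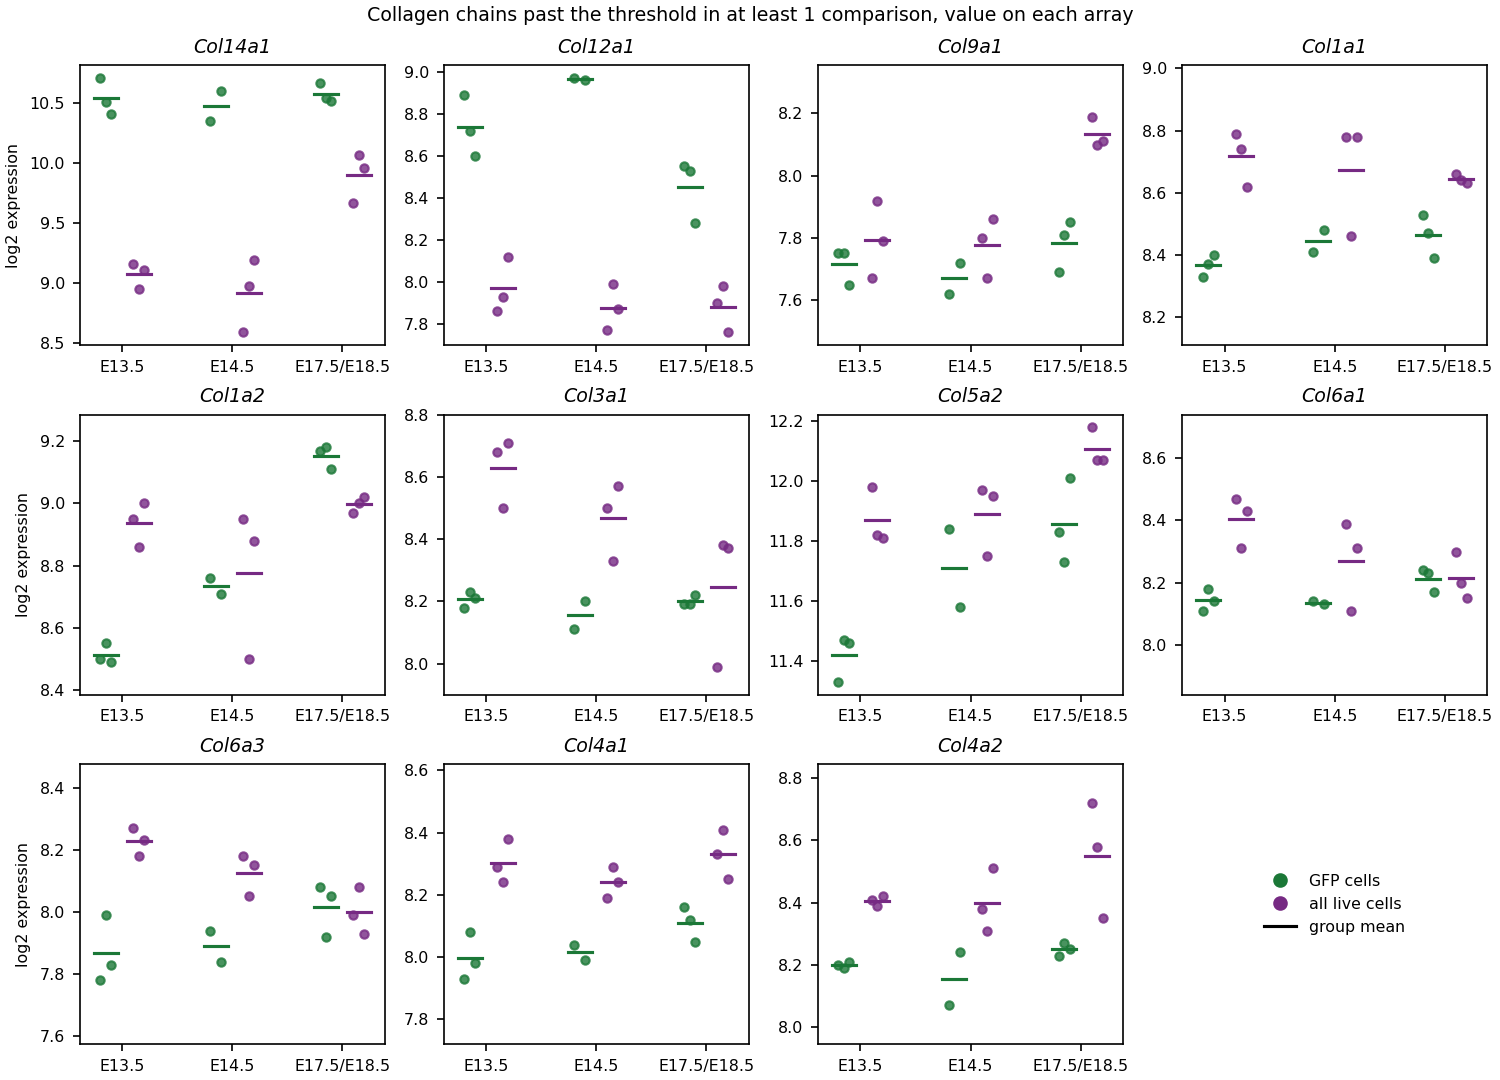
Log2 expression of the 11 collagen chains that passed the threshold in at least 1 comparison, on each of the 17 arrays, by age; green points are GFP cells, purple points all live cells, and short lines group means, and each panel has its own axis. Col14a1 in all live cells rises at the late age while GFP cells stay level, and Col1a2 in GFP cells rises with age.

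Of the 11 fibrillar chains, 4 were lower in GFP cells at E13.5 and 0 were higher. Col1a1 and Col1a2, whose products assemble together in collagen I, are described first. Col1a1, on chromosome 11, had values of 8.33, 8.37 and 8.40 in GFP cells and 8.79, 8.74 and 8.62 in all live cells at E13.5. Col1a2, on chromosome 6, had 8.50, 8.55 and 8.49 in GFP cells and 8.95, 8.86 and 9.00 in all live cells. For both chains all GFP arrays lay below all arrays of all live cells. The differences were -0.35 ± 0.09 for Col1a1 (adjusted p = 0.0071) and -0.42 ± 0.09 for Col1a2 (adjusted p = 0.00354).

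Col3a1 encodes the chain of collagen III, which lies with collagen I in the fibres of soft tissue and vessel walls. At E13.5 it had values of 8.18, 8.23 and 8.21 in GFP cells and 8.68, 8.50 and 8.71 in all live cells, a difference of -0.42 ± 0.10 (adjusted p = 0.00566). Col5a2 encodes a chain of collagen V, which nucleates and limits the width of fibrils. It had 11.33, 11.47 and 11.46 in GFP cells and 11.98, 11.82 and 11.81 in all live cells, a difference of -0.45 ± 0.10 (adjusted p = 0.00253). Neither chain's groups overlapped. The partner chain Col5a1 had 8.33, 8.46 and 8.40 in GFP cells and 8.49, 8.45 and 8.44 in all live cells, so its groups overlapped, and the difference was -0.06 ± 0.07 (adjusted p = 0.577). The 95% interval of that difference ran from -0.21 to 0.08. Col3a1 and Col5a2 are neighbours on chromosome 1. The other fibrillar chains, Col2a1, Col5a3, Col11a1, Col11a2, Col24a1 and Col27a1, passed the threshold in no comparison.

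After E13.5 none of the fibrillar chains passed the threshold between GFP cells and all live cells. At E14.5, Col1a1 had 8.41 and 8.48 in GFP cells and 8.78, 8.46 and 8.78 in all live cells (-0.23 ± 0.10, adjusted p = 0.118). Col3a1 had 8.11 and 8.20 in GFP cells and 8.50, 8.33 and 8.57 in all live cells (-0.31 ± 0.11, adjusted p = 0.0618). Replicate 2 of all live cells at E14.5 was the lowest of its group for both chains, as it was for Col1a2 and Col5a2. Without that array, Col1a1 (-0.34, adjusted p = 0.00984) and Col3a1 (-0.38, adjusted p = 0.0336) were called lower. The 95% interval of the difference for Col1a1 with all arrays ran from -0.43 to -0.03. Col1a2 had 8.76 and 8.71 in GFP cells and 8.95, 8.50 and 8.88 in all live cells, so its groups overlapped (-0.03 ± 0.10, adjusted p = 0.869). Col5a2 had 11.84 and 11.58 against 11.97, 11.75 and 11.95, also with overlap (-0.18 ± 0.11, adjusted p = 0.29).

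By the late age the order of Col1a2 was turned. Its values were 9.17, 9.18 and 9.11 in GFP cells and 8.97, 9.00 and 9.02 in all live cells, without overlap, and the difference of 0.15 ± 0.09 did not pass the threshold (adjusted p = 0.383). Col1a1 had 8.53, 8.47 and 8.39 in GFP cells and 8.66, 8.64 and 8.63 in all live cells (-0.18 ± 0.09, adjusted p = 0.234). Col3a1 had 8.19, 8.19 and 8.22 against 7.99, 8.38 and 8.37, so its groups overlapped (-0.05 ± 0.10, adjusted p = 0.854). Col5a2 had 11.83, 11.73 and 12.01 against 12.18, 12.07 and 12.07 (-0.25 ± 0.10, adjusted p = 0.125). In the same samples the mean level per array of the 18 fibroblast markers in all live cells was 7.98 to 8.00 at E13.5, then 7.64 to 7.81 at E14.5 and 7.43 to 7.51 in late samples, against 7.33 to 7.44, 7.24 to 7.28 and 7.24 to 7.32 in GFP cells. The markers' means in all live cells were lower at the later ages. In all live cells, late against E13.5, limma called Col3a1 lower (-0.38 ± 0.10, adjusted p = 0.0102). Col5a2 (0.24 ± 0.10, adjusted p = 0.0967), Col1a2 (0.06 ± 0.09) and Col1a1 (-0.07 ± 0.09) were not called there. The part of fibroblasts in the levels of the fibrillar chains was not tested.

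The promoter windows of Col1a2 and Col3a1 are shown because both fibrillar chains were lower at E13.5. By limma's interaction test the difference of Col1a2 moved upwards to the late age, by 0.58 (adjusted p = 0.0173). The change of Col3a1, 0.37, was not called (adjusted p = 0.155, unadjusted 95% interval 0.08 to 0.67). Within GFP cells, late against E13.5, Col1a2 changed by 0.64 and Col3a1 by -0.01. The chains were not tested against each other. The windows run from 250 bases before to 50 bases after the start of the gene and come from RefSeq (GRCm38.p6). Col1a2 lies at chr6:4505368-4505667 and Col3a1 at chr1:45311288-45311587, both on the plus strand. Capitals mark exact matches, on either strand, to the CCAAT box, the TATA box with the letters TATAAA, or the GC box with the letters GGGCGG.
Col1a2: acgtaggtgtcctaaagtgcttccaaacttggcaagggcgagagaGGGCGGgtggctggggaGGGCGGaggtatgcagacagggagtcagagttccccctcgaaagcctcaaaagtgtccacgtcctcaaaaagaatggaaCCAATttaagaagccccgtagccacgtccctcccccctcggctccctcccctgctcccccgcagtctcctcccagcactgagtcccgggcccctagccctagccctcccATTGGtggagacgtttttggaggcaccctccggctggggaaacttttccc
Col3a1: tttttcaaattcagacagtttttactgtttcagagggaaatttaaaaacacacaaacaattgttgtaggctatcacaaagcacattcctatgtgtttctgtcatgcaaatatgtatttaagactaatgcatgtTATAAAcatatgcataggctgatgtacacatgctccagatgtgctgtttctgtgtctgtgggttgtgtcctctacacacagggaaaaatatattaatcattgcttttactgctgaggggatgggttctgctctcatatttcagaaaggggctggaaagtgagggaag
The Col1a2 window held a pair of GC boxes and a pair of CCAAT boxes, 1 of the latter on the minus strand, and the Col3a1 window held 1 TATA box. By the same letters, 13.6% of all 32851 windows of this length held a TATA box, 37.4% a CCAAT box and 35.7% a GC box. Of the 40 chains, 32 had a window; some have several starts, and 5, 12 and 20 of their 35 windows held these 3 boxes. A match is a description of the sequence only.

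Of the 6 basement membrane chains, 0 were called higher in GFP cells at any age. Col4a1 was called lower at E13.5 and Col4a2 in late samples, and E14.5 brought no call. Col4a1 and Col4a2 are neighbours on chromosome 8 and assemble together in the most widespread form of collagen IV. At E13.5 Col4a1 had 7.93, 8.08 and 7.98 in GFP cells and 8.29, 8.24 and 8.38 in all live cells (-0.30 ± 0.07, adjusted p = 0.00625). Col4a2 had 8.20, 8.19 and 8.21 against 8.41, 8.39 and 8.42 (-0.21 ± 0.09, adjusted p = 0.121). The groups did not overlap for either chain, and the call was made for Col4a1 only; whether the chains differed from each other was not tested. At E14.5 Col4a1 had 8.04 and 7.99 in GFP cells and 8.19, 8.29 and 8.24 in all live cells (-0.22 ± 0.08, adjusted p = 0.0699). Col4a2 had 8.07 and 8.24 against 8.38, 8.31 and 8.51 (-0.24 ± 0.10, adjusted p = 0.108). Again neither chain's groups overlapped, as was also so at E14.5 for chains far from the threshold such as Col22a1 (adjusted p = 0.396).

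In late samples Col4a1 had 8.16, 8.12 and 8.05 in GFP cells and 8.33, 8.41 and 8.25 in all live cells (-0.22 ± 0.07, adjusted p = 0.0694). Col4a2 had 8.23, 8.27 and 8.25 against 8.72, 8.58 and 8.35 (-0.30 ± 0.09, adjusted p = 0.0424). At each age both chains were thus lower in every GFP array. The late call of Col4a2 ended when any 1 of 5 of the 6 arrays was left out, with adjusted p from 0.0741 to 0.189, and the array whose absence kept it was replicate 3 of all live cells. It also ended in the fit of only the compared groups (adjusted p = 0.213) and with the replicate number as a block (adjusted p = 0.0897). At E13.5, where Col4a1 was called, 2 of 10 endothelial markers were lower in GFP cells and 0 higher, and of 10 mural markers 3 were lower and 2 higher. The mean endothelial level per array was then 6.99 to 7.05 in GFP cells and 7.27 to 7.28 in all live cells, and the mean mural level was 7.63 to 7.78 and 8.15 to 8.21. At the late age, where Col4a2 was called, 9 of the endothelial markers and 6 of the mural markers were lower and 0 of either list higher. The mean endothelial level per array was then 7.10 to 7.11 in GFP cells and 8.05 to 8.16 in all live cells, and the mean mural level was 7.91 to 7.96 and 8.89 to 9.42. The part of vascular cells in the levels of Col4a1 and Col4a2 was not tested.

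Col4a1 and Col4a2 lie head to head. Their promoter windows are shown because both had lower values in GFP cells at each age, although they were called at different ages. The Col4a1 window lies on the minus strand at chr8:11312777-11313076 and the Col4a2 window on the plus strand at chr8:11312555-11312854 (RefSeq, GRCm38.p6). Capitals mark the 78 bases that the windows share, read here on opposite strands.
Col4a1: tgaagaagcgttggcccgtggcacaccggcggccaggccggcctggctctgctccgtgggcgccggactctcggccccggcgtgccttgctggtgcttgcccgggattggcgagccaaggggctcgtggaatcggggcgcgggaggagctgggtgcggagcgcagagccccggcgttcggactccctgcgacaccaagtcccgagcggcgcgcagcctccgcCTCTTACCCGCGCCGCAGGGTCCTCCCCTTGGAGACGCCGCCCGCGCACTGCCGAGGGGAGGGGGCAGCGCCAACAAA
Col4a2: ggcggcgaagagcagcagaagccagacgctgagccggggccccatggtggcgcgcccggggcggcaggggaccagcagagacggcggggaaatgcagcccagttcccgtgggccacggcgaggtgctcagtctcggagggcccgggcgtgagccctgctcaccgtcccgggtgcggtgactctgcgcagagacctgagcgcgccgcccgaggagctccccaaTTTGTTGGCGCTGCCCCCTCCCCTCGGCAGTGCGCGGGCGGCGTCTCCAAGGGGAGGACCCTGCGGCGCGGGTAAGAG
The shared stretch holds 1 GC box, which stands on the minus strand of the Col4a1 window and on the plus strand of the Col4a2 window. The chains of the other type IV pairs, Col4a3 with Col4a4 and Col4a5 with Col4a6, are also neighbours, on chromosomes 1 and X.

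Col4a5, a chain of the collagen IV networks of kidney and other specialised basement membranes, ran the other way without passing the threshold. Its values at E13.5 were 8.39, 8.41 and 8.39 in GFP cells and 8.26, 8.07 and 8.27 in all live cells, without overlap. The differences were 0.20 ± 0.09 at E13.5 (adjusted p = 0.132), 0.23 ± 0.10 at E14.5 (adjusted p = 0.121) and, late, 0.20 ± 0.09 (adjusted p = 0.202). The 95% intervals, not adjusted for the number of genes, ran from 0.01 to 0.39, 0.03 to 0.44 and 0.01 to 0.38. Col4a3, Col4a4 and Col4a6 passed the threshold in no comparison.

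Of the 3 type VI chains, which assemble together, Col6a1 and Col6a3 were lower in GFP cells at E13.5. Col6a1 had 8.11, 8.18 and 8.14 in GFP cells and 8.47, 8.31 and 8.43 in all live cells, without overlap (-0.26 ± 0.08, adjusted p = 0.0302). This call ended when any 1 of 5 of the 6 arrays was left out, with adjusted p from 0.0578 to 0.125 (replicate 2 of all live cells was the exception), and with the replicate number as a block (adjusted p = 0.0726). Col6a3 had 7.78, 7.99 and 7.83 against 8.27, 8.18 and 8.23 (-0.36 ± 0.08, adjusted p = 0.00289), and it kept its call without any single array. Col6a2, which neighbours Col6a1 on chromosome 10, had 8.36, 8.27 and 8.40 against 8.55, 8.40 and 8.48, with overlap at 8.40 (-0.13 ± 0.09, adjusted p = 0.325, 95% interval -0.32 to 0.05). At the late age the 3 chains differed by -0.04 to 0.02 and their groups overlapped.

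Of the 3 type IX chains, FACIT chains best known from cartilage and the vitreous, Col9a1 was called lower in late GFP cells; whether it differed from its partners was not tested. Col9a1 had 7.69, 7.81 and 7.85 in GFP cells and 8.19, 8.10 and 8.11 in all live cells, without overlap (-0.35 ± 0.08, adjusted p = 0.0103). Its partner Col9a2 had 9.26, 9.22 and 9.31 against 9.17, 9.18 and 9.12 (0.10 ± 0.07, adjusted p = 0.457), and Col9a3 had 9.39, 9.38 and 9.36 against 9.30, 9.48 and 9.35 (-0.00 ± 0.08, adjusted p = 0.992). The 95% intervals of these differences were -0.05 to 0.26 and -0.17 to 0.16. Without replicate 1 of the late GFP cells the call of Col9a1 ended (-0.30, adjusted p = 0.0553), as it did in the fit of only the compared groups (adjusted p = 0.0727). At E13.5 Col9a1 had 7.75, 7.75 and 7.65 in GFP cells and 7.67, 7.92 and 7.79 in all live cells, so the groups overlapped (-0.08 ± 0.08, adjusted p = 0.572). Of 8 cartilage markers 1 was higher and 0 were lower in GFP cells at the late age, with mean levels per array of 7.29 to 7.40 in GFP cells and 7.23 to 7.34 in all live cells. The marker was Sox9, which also marks astrocytes. Late all live cells also held more of other cells' markers: of 6 oligodendrocyte lineage markers 5 were lower in GFP cells, and of 8 microglia and macrophage markers 8 were lower. Their part in the level of Col9a1 was not tested.

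The remaining chains showed no call. The 29 chains that passed the threshold in no comparison differed between GFP cells and all live cells by -0.20 to 0.20 at E13.5, by -0.17 to 0.33 at E14.5 and by -0.11 to 0.22 at the late age. Their 95% intervals stayed between -0.40 and 0.39, between -0.36 and 0.61, and between -0.34 and 0.39. These intervals leave room for small differences, and a p above the threshold does not show equal levels. At the upper end at E14.5 stood Col8a1, a network-forming chain of vessel and corneal membranes, with 8.10 and 8.06 in GFP cells and 7.97, 7.48 and 7.79 in all live cells (0.33 ± 0.13, adjusted p = 0.0975). In late samples it was Col23a1, a transmembrane collagen, with 8.63, 8.68 and 8.54 against 8.41, 8.34 and 8.44 (0.22 ± 0.08, adjusted p = 0.118). The groups of these 2 chains did not overlap at those ages. The other transmembrane chains (Col13a1, Col17a1 and Col25a1), the multiplexins (Col15a1 and Col18a1), the anchoring fibril chain Col7a1 and Col28a1 were called in none.

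With age, 2 fibrillar chains rose in GFP cells, and 3 other chains passed the threshold in all live cells. In GFP cells, late against E13.5, 2 chains were higher, against 7.33% of all genes, and 0 were lower by limma's adjusted p, against 8.97%. At an unadjusted p under 0.05, 5 were higher and 1 lower. Col1a2 rose from 8.50, 8.55 and 8.49 to 9.17, 9.18 and 9.11, by 0.64 ± 0.09 (1.55-fold, adjusted p = 0.000135). Col5a2 rose from 11.33, 11.47 and 11.46 to 11.83, 11.73 and 12.01, by 0.44 ± 0.10 (1.35-fold, adjusted p = 0.00402). For neither chain did the ages overlap, and both calls held without any single array. The partner Col1a1 had 8.33, 8.37 and 8.40 at E13.5 and 8.53, 8.47 and 8.39 at the late age (0.10 ± 0.09, adjusted p = 0.485, 95% interval -0.08 to 0.28). Col12a1 had a difference of -0.28 ± 0.10 (adjusted p = 0.0738), which was called lower when the arrays were shifted to a common median (-0.33, adjusted p = 0.0357). Under that scaling 31.8% of all genes called in this comparison were higher, against 45.0% with the deposited values. Of the 18 fibroblast markers 1 was higher and 3 were lower in late GFP cells.

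In all live cells, late against E13.5, 2 chains were higher and 1 lower, against 10.2% and 9.99% of all genes. Col14a1 rose from 9.16, 8.95 and 9.11 to 9.67, 10.07 and 9.96, by 0.82 ± 0.14 (1.77-fold, adjusted p = 0.000285). Col9a1 rose from 7.67, 7.92 and 7.79 to 8.19, 8.10 and 8.11, by 0.34 ± 0.08 (1.27-fold, adjusted p = 0.00579). Col3a1 fell from 8.68, 8.50 and 8.71 to 7.99, 8.38 and 8.37 (-0.38 ± 0.10, adjusted p = 0.0102). The ages did not overlap for these 3 chains. The call of Col3a1 ended without replicate 1 of the late arrays (-0.25, adjusted p = 0.0593) and in the fit of only the compared groups (adjusted p = 0.062). Other cells' markers moved in the same samples: of 9 astrocyte and radial glia markers 8 were higher in late all live cells, with mean levels per array from 9.43 to 9.45 at E13.5 and from 10.74 to 10.87 at the late age. Of the 18 fibroblast markers 8 were lower and 1 was higher, and of the 10 endothelial markers 8 were higher and 0 lower. Of 10 mural markers 7 were higher and 0 lower, and of 8 microglia and macrophage markers 7 were higher and 1 lower. All 6 oligodendrocyte lineage markers were higher, and of 8 neuron markers 7 were lower and 0 higher. The part of these markers' cells in the changes of Col14a1, Col3a1 and Col9a1 was not tested.

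**Figure D3:**
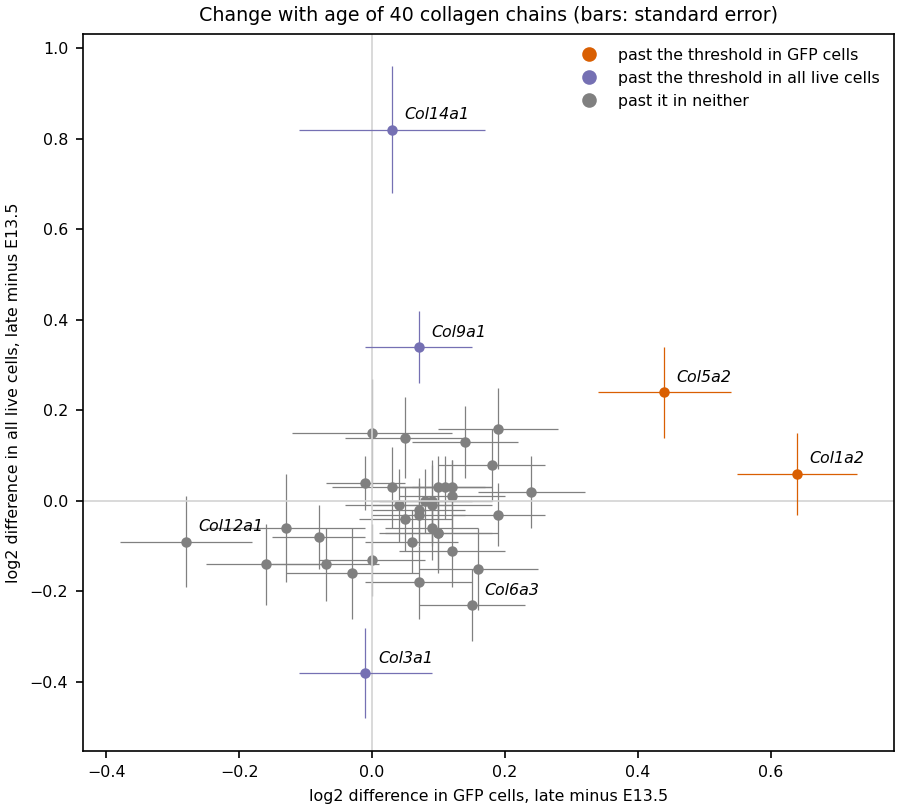
Change with age (log2, late minus E13.5) of the 40 collagen chains in GFP cells (horizontal) against all live cells (vertical), with limma's standard errors. Orange points (Col1a2 and Col5a2) passed the threshold in GFP cells and purple points (Col14a1, Col9a1 and Col3a1) in all live cells; grey points passed it in neither.

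The change of the difference itself was tested as an interaction, the difference at the late age minus that at E13.5. It was called higher for 1 chain, against 1.6% of all genes, and lower for 1, against 3.0%. For Col1a2 the difference moved from -0.42 to 0.15, a change of 0.58 ± 0.13 (adjusted p = 0.0173), and at the late age the GFP arrays lay above those of all live cells where they had lain below at E13.5. Without replicate 3 of all live cells at E13.5 this call ended narrowly (0.54, adjusted p = 0.0505). For Col14a1 the difference moved from 1.47 to 0.67, a change of -0.80 ± 0.19 (adjusted p = 0.0256). This call ended in 6 of the 12 fits that each left out 1 array, with values from -0.78 to -0.71 and adjusted p from 0.0513 to 0.0747. The arrays were replicates 2 and 3 of the late GFP cells, replicates 2 and 3 of the late all live cells, replicate 1 of the GFP cells at E13.5 and replicate 2 of all live cells at E13.5. It also ended without the E18.5 arrays (-0.74, adjusted p = 0.0922). Over the 40 chains the median change of the difference was 0.09, and over all genes it was 0.06.

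Of 24 genes for folding, modification and export of collagen, 14 were higher in GFP cells and 0 lower at E13.5, 12 and 0 at E14.5, and 6 and 0 in late samples. Over all genes 11.1%, 10.3% and 4.61% were higher and 8.02%, 8.24% and 4.69% lower at these ages. The list's median differences were 0.32, 0.30 and 0.17, and the remaining 10, 12 and 18 genes did not pass the threshold. P4ha3, a catalytic subunit of collagen prolyl 4-hydroxylase, was higher by 1.75 ± 0.14 at E13.5 (adjusted p = 1.88e-07), 1.67 ± 0.16 at E14.5 (adjusted p = 1.02e-06) and, late, 1.02 ± 0.14 (adjusted p = 0.00016). Plod2, a lysyl hydroxylase that acts on the ends of fibrillar chains, was higher by 1.23 ± 0.10, 1.29 ± 0.11 and 0.36 ± 0.10 at the 3 ages (adjusted p = 1.43e-07, 2.83e-07 and 0.0287). P3h2, a prolyl 3-hydroxylase, was higher by 1.38 ± 0.14 at E13.5 (adjusted p = 2.18e-06), Plod1 by 0.90 ± 0.10 at E13.5 (adjusted p = 3.80e-06) and P4ha1 by 1.26 ± 0.12 at E14.5 (adjusted p = 1.15e-06). At the late age Sec23a, a coat protein of export vesicles, was higher by 0.49 ± 0.11 (adjusted p = 0.00561) and P4ha2 by 0.44 ± 0.10 (adjusted p = 0.0117). These enzymes also act on proteins other than the chains listed here.

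Over age, 5 of these 24 genes were higher and 1 lower in GFP cells, and 8 were higher and 1 lower in all live cells. The shares over all genes were 7.33% and 8.97% in GFP cells and 10.2% and 9.99% in all live cells. In GFP cells P4ha3 rose by 0.54 ± 0.14 (adjusted p = 0.0148) and Crtap, a partner of the prolyl 3-hydroxylases, fell (-0.49 ± 0.15, adjusted p = 0.0303). In all live cells Plod2 rose by 0.93 ± 0.10 (adjusted p = 2.29e-06) and P4ha3 by 1.28 ± 0.14 (adjusted p = 4.77e-06). By limma's interaction test the difference between GFP cells and all live cells moved downwards from E13.5 to the late age for 7 of the 24 genes, against 3.0% of all genes, and upwards for 0, against 1.6%.

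The list of 15 genes for processing and crosslinking showed no common direction. At E13.5, 1 was higher and 3 were lower; at E14.5, 4 were higher and 2 lower; at the late age, 0 passed in either direction by limma's adjusted p. The shares over all genes were 11.1% and 8.02% at E13.5, 10.3% and 8.24% at E14.5, and 4.61% and 4.69% at the late age, so that 1 of 15 higher at E13.5 is no more than that background. Adamts3, a protease that removes the amino-terminal propeptide of fibrillar procollagens, had the widest difference of the list, 2.66 ± 0.35 at E13.5 (adjusted p = 3.45e-05) and 2.22 ± 0.40 at E14.5 (adjusted p = 0.000537). Lox, a lysyl oxidase that starts collagen crosslinks, was lower at E13.5 (-0.65 ± 0.10, adjusted p = 9.56e-05), as were the procollagen C-proteinase Tll1 (-0.52 ± 0.11, adjusted p = 0.00176) and its enhancer Pcolce (-0.41 ± 0.10, adjusted p = 0.00763). At E14.5 Pxdn, which forms the sulfilimine crosslinks of collagen IV, was higher by 0.57 ± 0.08 (adjusted p = 6.86e-05), and Loxl3 by 0.56 ± 0.10 (adjusted p = 0.000479). In GFP cells Adamts3 fell with age (-1.95 ± 0.35, adjusted p = 0.000947).

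Among 11 collagen receptors and uptake genes, 10 were measured, and Gp6 was not. Of the 10, 5 were higher and 1 lower in GFP cells of E13.5, 5 and 0 in those of E14.5, and 2 and 1 in late ones, against 11.1% and 8.02%, 10.3% and 8.24%, and 4.61% and 4.69% of all genes. Itgb1, the beta subunit shared by the collagen-binding integrins, was higher by 0.64 ± 0.09 at E13.5 (adjusted p = 3.41e-05) and 0.80 ± 0.10 at E14.5 (adjusted p = 9.50e-06). Its partner Itga2 was higher by 0.96 ± 0.16 (adjusted p = 0.000246) and 1.15 ± 0.17 (adjusted p = 0.00012) at these ages. The receptor kinase Ddr1 was higher at all 3 ages, by 0.59 ± 0.10, 0.72 ± 0.11 and 0.38 ± 0.10 (adjusted p = 0.000476, 0.000177 and 0.0261), as was Adgrg1, an adhesion receptor for collagen III, by 0.44 ± 0.08, 0.78 ± 0.09 and 0.59 ± 0.08 (adjusted p = 0.00099, 8.73e-06 and 0.000148). Itga1, a further collagen-binding partner of Itgb1, was lower at the late age (-1.20 ± 0.10, adjusted p = 9.36e-07).

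The 21 matrix partners were divided, with 7 higher and 7 lower in GFP cells of E13.5, 7 and 5 in those of E14.5, and 3 and 5 in late ones. Over all genes 11.1%, 10.3% and 4.61% were higher and 8.02%, 8.24% and 4.69% lower at these ages. Partners higher at E13.5 included Sparc, a matricellular collagen-binding protein (1.15 ± 0.09, adjusted p = 7.17e-08), and the laminin chains Lama1 (1.01 ± 0.09, adjusted p = 4.28e-07) and Lamc1 (0.92 ± 0.07, adjusted p = 1.68e-07). Nid1, which links laminin to collagen IV, was higher by 1.30 ± 0.14 at E14.5 (adjusted p = 2.79e-06) and 0.59 ± 0.12 at the late age (adjusted p = 0.00485). The laminin chains Lama4 (-0.63 ± 0.09, adjusted p = 0.00013), which is typical of vessels, and Lamb1 (-0.63 ± 0.11, adjusted p = 0.0013) were lower at the late age. At E13.5 the basement membrane genes Lama1 and Lamc1 were thus higher in GFP cells and Col4a1 was lower.

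**Figure D4:**
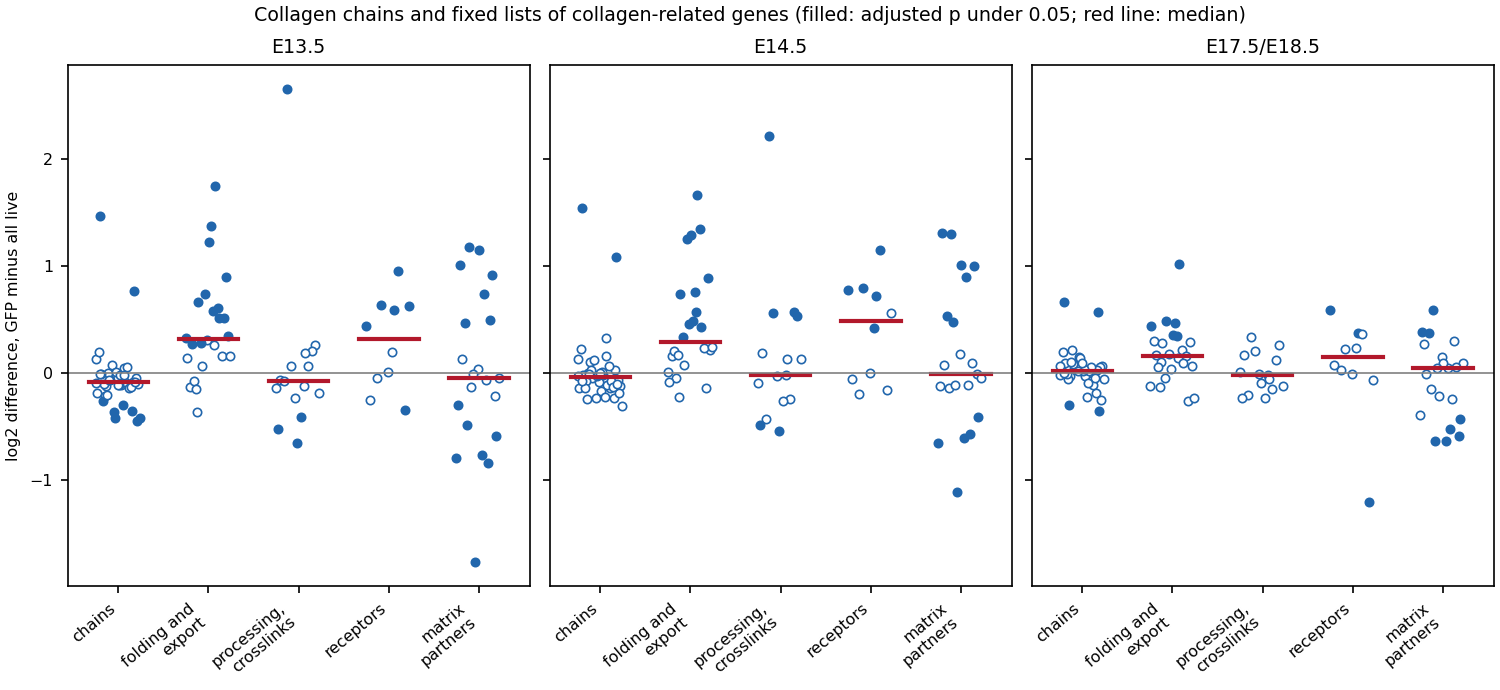
Difference between GFP cells and all live cells (log2, GFP minus all live) at the 3 ages for the 40 collagen chains and for the 4 lists of collagen-related genes; each point is a gene, filled where the adjusted p is under 0.05, and red lines are medians. The folding and export list has median differences of 0.32, 0.30 and 0.17, and most chains lie near 0.

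In the authors' deposited coexpression table, each gene carries a correlation with the profile of each of 10 modules (kME), computed over the same 17 arrays, so these values describe the arrays again and are no separate support. By the authors' looser assignment 9 of the 40 chains belonged to a module, against 36.8% of all genes. Col14a1 lay in the module that the authors' deposited table notes as Middle astro id3 (kME 0.9504) and Col12a1 in the one noted as early nfe2l1 (kME 0.956); these 2 chains were also the only ones in a module by the stricter assignment. Col4a2 (kME 0.8689) and Col9a1 (kME 0.8574), both lower in late GFP cells, belonged to the module noted as vtn, ets1 by the looser assignment in the authors' deposited table, together with Col28a1. Col3a1, Col6a1, Col6a3 and Col1a1 had their highest kME with the module noted as NON astro in the authors' deposited table, 0.802 for Col3a1. Of the other chains lower at E13.5, Col1a2 had its highest kME in the authors' deposited table with the module noted as late astro apoe (0.6967), and Col5a2 (0.7163) and Col4a1 (0.6729) with the one noted as vtn, ets1. These 7 chains belonged to no module by either assignment of the authors' deposited table.

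The authors' deposited comparison tables hold 2 of the chains for E13.5, 1 for E14.5 and 0 for the late comparison. In the authors' deposited table for E13.5 the folds of GFP cells over all live cells were 2.77 for Col14a1 (adjusted p = 0.021) and 1.70 for Col12a1 (adjusted p = 0.0282), the same folds as computed here from the assigned arrays. In the authors' deposited table for E14.5 the fold of Col12a1 was 1.59 (adjusted p = 0.141), against 2.13 here.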

How the data were processed

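RNA of 17 assigned arrays was analysed; 1 further array, called mislabeled by its title, entered no comparison. Per the labels' protocols, RNA was amplified (WT ovation) and labelled with biotin. The authors deposited log2 expression values for 35556 probe sets; per the submitters' processing notes the tools were oligo, RMA and limma with the build mm9, whose versions are not stated in what was used here. The authors' deposited comparison tables give a linear fold (a ratio of GFP cells over all live cells) with a p-value and, at E13.5 and E14.5, a moderated t score, and the authors' deposited coexpression table gives the kME score of each gene and module with its p-value. In these comparison tables, 18 columns of single-sample values were not assigned to a group and were not used.

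The value table has no gene names. Probe sets were named by finding, for each named row of a deposited table, the probe set that gives its values: each of the 23890 rows of the coexpression table matched a probe set through kME values recomputed on the linear scale (tolerance 1e-07), 135 of them more than 1, and each of the 41 matched members had 1 probe set. For 142 genes with several probe sets the brightest was used, which left 23820 genes. Older symbols were updated through RefSeq (3331 names).

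All arrays were fitted with limma 3.58.1 in R 4.3.3 (6 group means, 11 residual and 5.43 prior degrees of freedom), with Benjamini-Hochberg adjustment per comparison. The code was tested on simulated data. Replicate numbers were checked as pairs: same-numbered samples of the sorts correlated at -0.081 to 0.121 in their deviations, and differently numbered ones at -0.179 to 0.0979. Deviations from means of 2 or 3 arrays depend on each other, so this check cannot settle whether the numbers are pairs. The numbers were not used as a block in the main fit, and the block was run as an alternative. The labels name no batch and no scan date. The number of arrays limits the precision.

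The chains, the lists, the markers and the tests were chosen with earlier results of these data known. Chains past the threshold in at least 1 comparison are given with values; array by array values are given for the 4 called chains with the widest differences per comparison and for partner chains, with further chains added where a sentence compares them. From each list, up to 4 genes per comparison with the smallest adjusted p could be named. Dcn, Col8a1, Col23a1 and Col4a5 were singled out after their values were seen. Alternatives were another normalization, filters, other fits, a replicate block and leaving out arrays.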

Additional observations from a re-analysis of the deposited data

Results flagged for a closer look

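By limma's interaction test, the difference between GFP cells and all live cells changed from E13.5 to the late age for 5.0% of the 40 collagen chains. Over all genes the share was 4.6%. The change was 0.58 on the log2 scale for Col1a2 (limma's adjusted p = 0.0173) and -0.80 for Col14a1 (adjusted p = 0.0256). Of 12 fits that each left out 1 array, the call of Col14a1 ended in 6 and that of Col1a2 in 1. Over all genes 1.6% moved upwards and 3.0% downwards by the same test. Of the 24 folding genes 0 moved upwards and 7 downwards, and of the 15 processing genes 1 and 1. Of the 10 measured receptor genes these counts were 0 and 1, and of the 21 matrix partners 3 and 4. From each list, up to 4 of those with the smallest adjusted p are given here. The difference shrank for the hydroxylases Plod2 (-0.87), P3h2 (-0.91) and Plod1 (-0.61), and for Sparc (-1.05), Lamc1 (-0.85), Lama1 (-0.74) and Adamts3 (-2.32). For Crtap it went from 0.52 to -0.26 (-0.78). For Itga1 it moved further below 0 (-0.85). For Lum (1.55) and Lox (0.56), both lower in GFP cells at E13.5, the difference moved towards 0.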

How the results depend on the processing

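No called value of a chain changed sign under the alternatives run. Values of single chains under the alternatives were kept only for the 11 chains that passed the threshold at least once. Of their values that were not called, 20 changed sign, in 8 pairs of chain and comparison. The main values of these pairs lay between -0.05 and 0.05, and none was called under an alternative. For Col1a2 at E14.5 (-0.03) the turned values were 0.0046 with the common median and 0.016 with the replicate block. Without replicates 1 and 3 of all live cells they were 0.05 and 0.02. For these 11 chains, 509 values came from settings other than leaving out an array. Of these, 492 kept their side of the threshold, 9 lost it and 8 gained it. Of 451 values of the 11 chains with 1 array left out, 426 kept it, 19 lost it and 6 gained it. The other 29 chains enter only the counts that follow. Counts of chains that differed from those with the deposited values, given here in parentheses, were as follows. At E13.5, 3 chains were higher with arrays shifted to a common median (2), and 8 were lower with only the compared groups and 6 with the replicate block (7). At E14.5, 4 chains were higher with the common median (2) and 1 was lower without dim genes (0). At the late age, 1 was lower with all probe sets, 0 with only the compared groups and 1 with the replicate block (2). In GFP cells over age, 3 were higher after a further quantile normalization and 3 without dim genes (2) and 1 was lower with the common median (0). In all live cells over age, 3 were lower after a further quantile normalization, 2 with the common median, 2 without dim genes and 0 with only the compared groups (1). For the interaction, 2 were higher without dim genes (1), and 0 were lower with all probe sets or without the E18.5 arrays (1). With 1 array left out, chains higher and lower numbered 2 to 2 and 6 to 7 at E13.5, 2 to 3 and 0 to 2 at E14.5, 2 to 2 and 0 to 2 at the late age, 2 to 3 and 0 to 0 in GFP cells over age, 2 to 3 and 0 to 2 in all live cells over age, and 0 to 2 and 0 to 1 for the interaction. Fits with fewer arrays or groups have fewer degrees of freedom; the cause of the other moves was not tested. The replicate block moved the calls over all genes from 4554 to 4024 at E13.5, and the samples share only a number. In the authors' deposited table Col12a1 at E14.5 had an adjusted p of 0.141. Shifts of the median of all genes stayed under 0.1.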

Other observations

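The array that its title calls mislabeled lay below every assigned array for 4 of the 40 chains, with log2 values of 8.12 for Col14a1, 7.70 for Col12a1, 7.84 for Col4a5 and 8.52 for Col13a1. For the other 36 chains it lay within the range of the assigned arrays.

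The folds in the authors' deposited table for E14.5 were set against folds computed from the arrays. For 552 of 552 listed genes the fold equalled, within a relative 0.001, the one computed with the mislabeled array counted as a GFP array, and for 0 of 552 the one computed with the 2 assigned GFP arrays. For Col12a1 the fold was 1.59 with that array, equal to the authors' deposited table, and 2.13 without it.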
